A study of Mus musculus with 4 samples.

Results

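A list of 30 genes known from astrocytes was followed in RNA of captured ribosomes and in whole-tissue RNA of the mouse prefrontal cortex. A row was taken as a member when its symbol in the count tables was on the list, and all 30 members were found among 24091 genes with a symbol. Translating ribosome affinity purification (TRAP) pulls EGFP-tagged polysomes out of a tissue homogenate with anti-EGFP antibodies on magnetic beads, so that RNA of cells without the tag should be left behind. All animals were untreated adult male Crh-IRES-Cre mice, whose Crh locus (corticotropin-releasing hormone) drives Cre recombinase, and the carrier of the EGFP tag was not given in the sources used here. The groups were 1 Input library (RNA of the tissue before capture) and 3 immunopurified (IP) libraries, each made from 5 pooled males. The labels did not say whether Input and IP came from the same animals, nor whether separate animals went into the IP libraries. Every p-value here therefore reflects the spread of these libraries alone, and that spread may be technical.

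Astrocytes are the glia that clear glutamate and GABA from around synapses, turn glutamate into glutamine for neurons, carry water and ions between tissue and vessels, and join into a network through gap junctions. They also secrete apolipoproteins, matrix proteins and protease inhibitors. Their transcripts are known as the background of a neuronal pull-down, yet several genes used as astrocyte markers are also transcribed by neurons, oligodendrocytes or microglia. The genes are described below by role: transport of glutamate and other amino acids, water and ion channels, filament and metabolic genes, secreted proteins, and receptors with the transcription factor Sox9.

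Levels are TMM-scaled CPM, the counts relative to the library's scaled size. The Input library held 14474529 counts, against 23548375, 10031072 and 12150980 for IP 1, 2 and 3, and 1 count was worth 0.0600, 0.0436, 0.107 and 0.0862 CPM. The capture was checked on Crh, which was at 1.32 CPM in Input and 501, 174 and 193 CPM in IP 1, 2 and 3. The 6 markers of GABAergic neurons, which include Crh, summed to 455.5 CPM in Input and 4753 to 7441 CPM in IP. All 6 were above the Input in every IP library (all genes tested: 19.7%). The 6 markers of excitatory neurons summed to 1645 CPM in Input and 544 to 1065 CPM in IP. Of the 8 astrocyte markers set down to check the label, Aqp4, Gfap, Slc1a3, Aldh1l1, Gja1, Gjb6, Sox9 and Slc1a2, none was at 0 in any library. All 8 are also members of the astrocyte list followed here. A level above 0 in Input and IP alike does not separate the groups, so it could not check the label.

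Most astrocyte genes were lower on captured ribosomes than in whole tissue, but the size varied widely and a single gene passed the test. Of the 30 genes, 24 had a log2 fold below 0 (45.8% of all genes tested), and 21 lay under Input in all 3 IP libraries, against 24.1% of all 14628 genes tested, and 1 lay above it in all 3, against 19.7%. The median log2 fold of IP over Input was -0.79, with the middle part of the list from -1.51 to -0.31 (quartiles), while the median of all genes tested was 0.083. With edgeR's quasi-likelihood F test and Benjamini-Hochberg adjustment over all genes tested, 1 gene of the 30 was called lower (background 0.0479%) and 0 higher (background 0.417%). At an unadjusted p under 0.05, 3 were lower (Fam107a, S100b and Slc25a18, background 1.23%) and 1, Atp1b2, higher (background 3.21%). DESeq2 called 1 of the 30, lower in IP, against 1.23% of all genes (0.082% lower, 1.15% higher). Likewise limma-voom called 1, lower in IP, against 0.342% (0.0957% lower, 0.246% higher). All 30 passed the low-count filter, and each reached its level of 0.751 CPM (unscaled) both in the Input and in at least 1 IP library. In whole tissue, fewer cells of a type and less RNA per cell cannot be told apart, and in IP neither can be told from less capture.

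**Figure D1:**
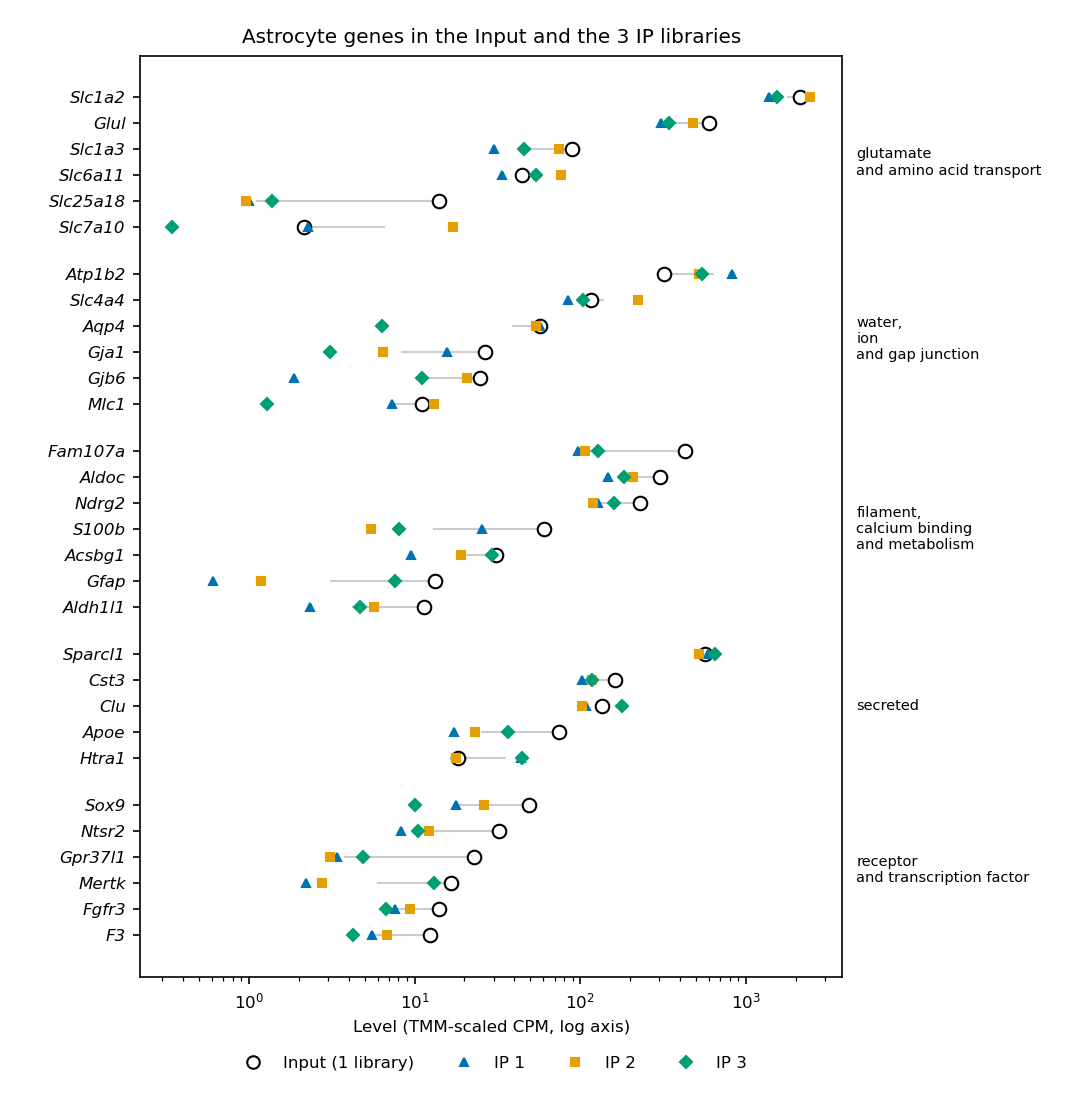
Level of each of the 30 astrocyte genes (rows, grouped by role and sorted by Input level) in TMM-scaled CPM on a log axis; open circles are the single Input, filled symbols the 3 IP libraries, and grey lines join the Input to the IP mean. Every filament, calcium-binding, metabolic, receptor and Sox9 row has all 3 IP symbols left of the Input (all genes tested: 24.1%). Atp1b2 has all 3 to the right (19.7%).

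The summed level of the list was 0.808 of the Input on average. The 30 genes together made up 5607 CPM in Input and 4067, 5257 and 4263 CPM in IP 1, 2 and 3, a mean of 4529 ± 638 CPM (SD, n = 3). Each IP library lay below the Input. One gene, the glutamate transporter Slc1a2, carried 37.9% of that sum in the Input and 33.9%, 46.7% and 36.3% in the IP libraries. Among the 15 genes listed as mostly astrocytic the sum was 434 CPM in Input and 201, 345 and 197 CPM in IP. Of these 15, 12 lay below the Input in all 3 (all genes tested: 24.1%), and the median log2 fold was -1.16. Among the 15 also known from other brain cells the sum was 5173 CPM and 3866, 4912 and 4066 CPM. Here 9 of the 15 lay below in all 3 (all genes tested: 24.1%), and the median was -0.66. Whether these 15 and 15 genes differ from each other was not tested.

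Fam107a, which encodes an actin-associated protein abundant in astrocytes and also made by neurons, was the gene that passed the test. It was at 429 CPM in Input and 96.5, 106 and 128 CPM in IP 1, 2 and 3. The 3 IP values lay close together and far below the Input. Its IP mean of 110.2 ± 16.0 CPM (SD, n = 3) gave a log2 fold of -1.96 ± 0.41 (SE), with an adjusted p of 0.0311 by edgeR, 0.00532 by DESeq2 and 0.0189 by limma-voom. The gene lies on chromosome 14 (8296274 to 8318023, minus strand, protein coding, GRCm38), and no other annotated gene overlaps its exons.

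The 4 genes with a lower log2 fold than Fam107a, namely Slc25a18, Gpr37l1, S100b and Gfap, did not pass. Slc25a18, a mitochondrial glutamate carrier of astrocytes (chromosome 6, 120773578 to 120794336, plus strand), was at 14.0 CPM in Input and 1.003, 0.963 and 1.38 CPM in IP 1, 2 and 3, which were 234 counts against 23, 9 and 16. Its log2 fold of -3.64 ± 1.60 was the lowest of the 30 genes (adjusted p = 0.994 by edgeR). Per exon length, its level was 7.34 CPM per kilobase in the Input (rank 21 of 30) and 0.583 CPM per kilobase on average in IP (rank 30). Gpr37l1, an orphan receptor of astrocytes and oligodendrocyte precursors, was at 22.7 CPM and at 3.40, 3.10 and 4.92 CPM (log2 fold -2.58 ± 1.25, adjusted p = 0.99999 by edgeR). S100b, a calcium-binding protein of astrocytes and some oligodendrocytes, was at 60.1 CPM and at 25.6, 5.45 and 8.02 CPM (log2 fold -2.20 ± 0.91, adjusted p = 0.902 by edgeR). S100b lies on chromosome 10 (76253853 to 76261159, plus strand). All IP libraries of Slc25a18, Gpr37l1 and S100b lay below the Input, and for S100b IP 1 stood above the other IP libraries. Without IP 1 the log2 fold of S100b was -3.17, with an adjusted p of 0.111 by edgeR.

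The start regions of the gene that passed the test and of the gene with the lowest log2 fold are shown to place them in the genome. The sequences are the 120 bases before a RefSeq start (GRCm38.p6), printed 5′ to 3′ on the gene's own strand. Capitals mark a match to the TATA box (TATAAA, either strand). The Fam107a stretch is chr14:8309780-8309899 on the minus strand, before one of its RefSeq starts, and the Slc25a18 stretch is chr6:120773648-120773767 on the plus strand. Both stretches lie inside the gene spans given above. Another of the 3 Fam107a windows, not printed, lies nearer the gene's 5′ end (chr14:8317608-8317727).
Fam107a: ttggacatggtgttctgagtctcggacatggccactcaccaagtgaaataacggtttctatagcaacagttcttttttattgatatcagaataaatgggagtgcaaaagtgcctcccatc
Slc25a18: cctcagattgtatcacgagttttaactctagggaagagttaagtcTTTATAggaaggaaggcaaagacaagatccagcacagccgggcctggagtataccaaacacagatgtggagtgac
RefSeq windows of 300 bases (250 before to 50 after a start) were at hand for 25 of the 30 genes, in 34 windows, some of which overlap; Aqp4, Atp1b2, Clu, Sparcl1 and Sox9 were not matched. A TATA box was in 5 of the 34 windows (14.7%), against 13.6% of all 32851 windows, and a GC box (GGGCGG, either strand) in 18 (52.9%), against 35.7%. The palindrome bound by STAT factors (TTCNNNGAA) was in 5 windows (14.7%, against 8.30%), those of Acsbg1, Aldoc, Gfap, Ntsr2 and Slc1a3. The SOX core AACAAT was in 0 windows (against 10.7%), and the palindrome bound by NFI factors in 0 (against 0.0365%). Such matches are descriptions of letters in these windows.

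Among the transporters and enzymes that handle glutamate and other amino acids, 3 of 6 genes lay under Input in all IP libraries (all genes tested: 24.1%). Slc1a2, which makes the main glutamate transporter of cortical astrocytes and is also transcribed at low level in neurons, was at 2123 CPM in Input and 1380.1, 2457 and 1546 CPM in IP 1, 2 and 3. IP 2 lay above the Input and the others below, and the log2 fold was -0.24 with a 95% interval from -0.95 to 0.47. Glul, the glutamine synthetase, was at 597 CPM and at 310, 481 and 343 CPM (log2 fold -0.66 ± 0.38). Slc1a3, the other astrocytic glutamate transporter, was at 89.7 CPM and at 30.2, 74.4 and 45.7 CPM (log2 fold -0.84 ± 0.66). For both genes all IP libraries were below the Input and IP 2 was nearest to it.

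Slc6a11 and Slc7a10 had IP libraries on both sides of the Input. Slc6a11, a GABA transporter of astrocytes, was at 44.7 CPM in Input and at 33.8, 77.1 and 54.3 CPM across IP (log2 fold 0.30 ± 0.73), with IP 1 below the Input and the others above. Slc7a10, a serine and alanine exchanger, had 36 counts in Input and 52, 159 and 4 in IP 1, 2 and 3, or 2.16 CPM and 2.27, 17.0 and 0.345 CPM. Its IP libraries spanned a 49.3-fold range, the widest of the 30 genes, and its log2 fold of 1.59 ± 2.07 was -0.71 without IP 2. Of the exon bases of Slc7a10, 17.9% are shared with Lrp3 on the opposite strand, and whether the counting separated them is unknown.

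The genes of water, ion and gap junction proteins varied most between IP libraries. Aqp4, the water channel of astrocyte endfeet, was at 57.4 CPM in Input and 57.0, 54.4 and 6.38 CPM in IP 1, 2 and 3. Mlc1, a membrane protein of the same endfeet, was at 11.2 CPM and at 7.32, 13.2 and 1.29 CPM. In both, IP 3 stood far below the other libraries. For Aqp4, IP 1 and 2 lay near the Input, while for Mlc1 IP 1 lay below it and IP 2 above. The connexin gene Gja1 was at 26.5 CPM and at 15.7, 6.42 and 3.10 CPM (log2 fold -1.65 ± 1.14), and Gjb6, its partner in astrocytic gap junctions, at 24.9 CPM and at 1.87, 20.6 and 11.1 CPM (log2 fold -1.15 ± 1.17). Both connexins were below the Input in every IP library, but the lowest library was IP 3 for Gja1 and IP 1 for Gjb6. The log2 fold of Gja1 was -2.50 without IP 1, and without IP 2 that of Gjb6 was -1.95 and that of Mlc1 -1.37 (-0.62 with all libraries). The median coefficient of variation over IP was 75.1% in this group of 6, 38.9% over the 30 genes and 51.5% over all genes tested.

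Atp1b2 was the one gene of the 30 above the Input in all IP libraries. It encodes a beta subunit of the sodium pump and is known from astrocytes and from neurons (chromosome 11, 69599736 to 69605942, minus strand). It was at 319 CPM in Input and 824, 524 and 542 CPM in IP 1, 2 and 3, a mean of 630.3 ± 168 CPM (SD, n = 3) and a log2 fold of 0.98 ± 0.41 (adjusted p = 0.902 by edgeR). The lowest IP library was well above the Input, yet the difference did not pass. Slc4a4, a sodium bicarbonate cotransporter, was at 116 CPM and at 84.9, 223 and 104 CPM (log2 fold 0.24 ± 0.57), above the Input in IP 2 alone.

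All 7 genes of filaments, calcium binding and metabolism lay below the Input in every IP library (all genes tested: 24.1%). Their median log2 fold was -1.43, and they summed to 1076 CPM in Input and to 411, 464 and 522 CPM in IP. Fam107a and S100b, described above, belong here. Aldoc, the brain form of the glycolytic enzyme aldolase, was at 303 CPM and at 148, 208 and 184 CPM (log2 fold -0.75 ± 0.42), and Ndrg2, a hydrolase-like protein of astrocytes, at 229 CPM and at 128, 119 and 160.0 CPM (-0.76 ± 0.45). Their IP means were 0.594 and 0.592 of the Input, and their IP libraries lay close together. Aldh1l1, an enzyme of folate metabolism, had 190 counts in Input and 54, 53 and 54 in IP (11.4 CPM and 2.35, 5.67 and 4.66 CPM). Acsbg1, a fatty acid ligase, was at 30.9 CPM and at 9.50, 19.1 and 29.5 CPM, nearly at the Input in IP 3.

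Gfap, the intermediate filament of astrocytes, is known to be low in grey matter and high in white matter and at the brain surface. It had 221 counts in Input and 14, 11 and 88 in IP 1, 2 and 3, or 13.3 CPM and 0.610, 1.18 and 7.59 CPM. IP 3 was 12.4 times IP 1, and the log2 fold was -2.09 ± 1.60 (adjusted p = 0.99999 by edgeR) and -3.90 without IP 3. Mertk, a phagocytic receptor of astrocytes and microglia, had the same order, with 16.5 CPM in Input and 2.22, 2.78 and 13.02 CPM in IP, and a log2 fold of -1.46 that was -2.72 without IP 3. The ependymal and choroid markers, 5 genes, summed to 5.94 CPM in Input and 1.61, 0.107 and 43.3 CPM in IP. Kl made up most of the sum in IP 3, at 4.08 CPM in Input and 0.131, 0 and 33.2 CPM in IP, and Foxj1 was at 1.68 CPM and at 0.392, 0 and 10.1 CPM. The other markers were not high in IP 3: Ttr was at 0 in IP 1 and 3, Folr1 at 0 in IP 2 and 3, and Tmem212 at 0 in every library. Their part in the values of Gfap and Mertk was not tested.

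Genes of secreted proteins lay on both sides of the Input, with a median log2 fold of -0.056 over 5 genes. Sparcl1, a matrix protein that promotes synapses and is also made by neurons and endothelium, was at 567 CPM in Input and at 591, 522 and 656 CPM in IP, on both sides of the Input. Its log2 fold was 0.057 with a 95% interval from -0.69 to 0.81, and it turned to -0.16 with upper-quartile factors and -0.21 with library totals. Clu, the apolipoprotein clusterin, was at 135 CPM and at 109, 102 and 178 CPM, below the Input in IP 1 and 2 and above it in IP 3. Per exon length Sparcl1 had the highest level of the 30 genes in the Input, at 193 CPM per kilobase, and again in IP, at 201 CPM per kilobase.

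Of the other secreted genes, Apoe and Cst3 were low in IP and Htra1 was not. Apoe, the lipid carrier that astrocytes and microglia secrete, was at 74.3 CPM in Input and at 17.3, 23.2 and 36.6 CPM across IP (log2 fold -1.53 ± 0.74, adjusted p = 0.99999 by edgeR). Cst3, the protease inhibitor cystatin C, was at 163 CPM and at 103, 118 and 118 CPM (log2 fold -0.53 ± 0.48). Both were below the Input in every IP library. Htra1, a secreted serine protease, was at 18.2 CPM and at 43.7, 17.9 and 44.4 CPM (log2 fold 0.95 ± 0.92), with IP 2 just below the Input and the others above it.

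All 6 receptors and transcription factors lay below the Input in every IP library (all genes tested: 24.1%). Their median log2 fold was -1.46, and they summed to 147 CPM in Input and 44.9, 60.5 and 49.5 CPM in IP. Sox9, a transcription factor of glial fate, was at 49.2 CPM in Input and at 17.7, 26.1 and 10.1 CPM across IP (log2 fold -1.45 ± 0.86). Ntsr2, a neurotensin receptor of astrocytes, was at 32.3 CPM and at 8.28, 12.3 and 10.5 CPM (log2 fold -1.64 ± 0.99). Fgfr3, a fibroblast growth factor receptor, was at 14.0 CPM and at 7.67, 9.41 and 6.73 CPM, and F3, the tissue factor that starts coagulation, at 12.4 CPM and at 5.54, 6.84 and 4.23 CPM. These 4 genes were low in IP, but none passed the test, and adjusted p-values were 0.99999 by edgeR. The IP libraries differed by 2.59-fold for Sox9, 1.48-fold for Ntsr2, 1.40-fold for Fgfr3 and 1.62-fold for F3. In Fgfr3 13.9% of the exon bases, and in Aldh1l1 13.4%, are shared with other genes, at least in part on the opposite strand.

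**Figure D2:**
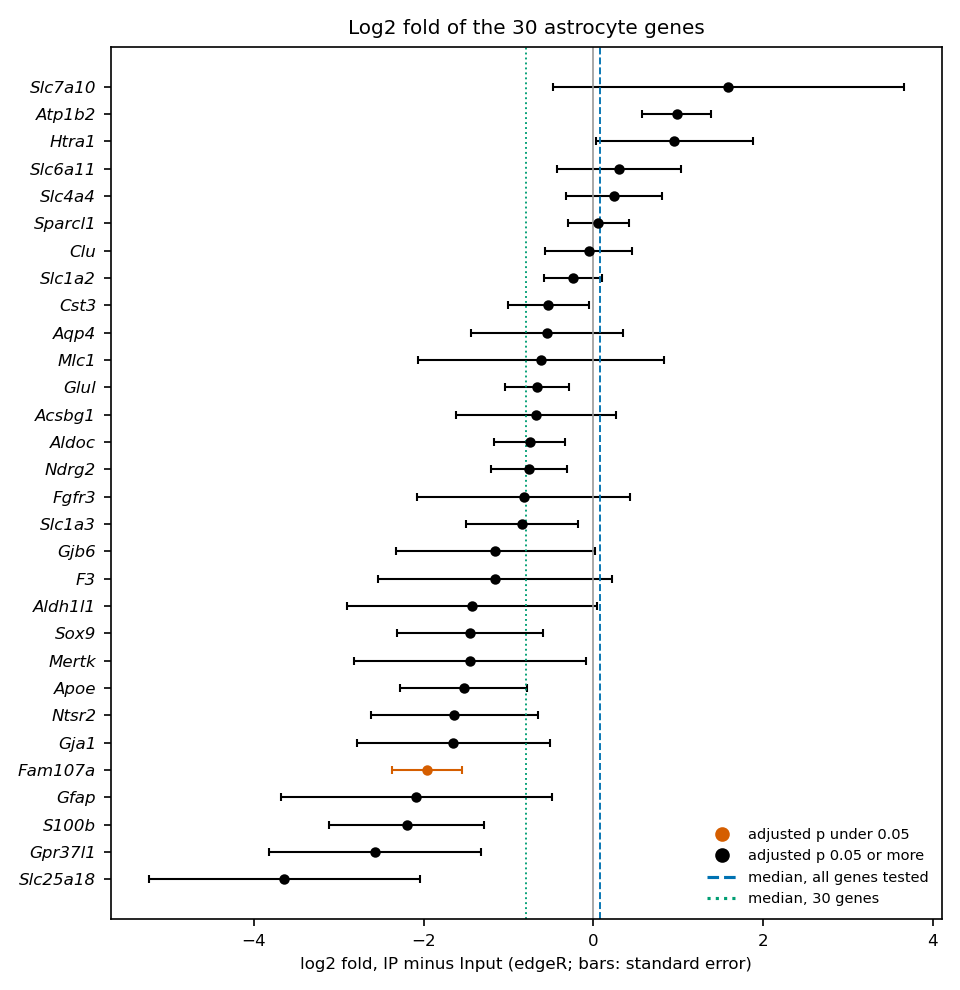
Log2 fold of IP over Input for the 30 astrocyte genes (rows, sorted), with the standard error as bars; the dashed line is the median of all genes tested (0.083), the dotted line the median of the 30 (-0.79). The gene that passed, Fam107a in orange, has a narrow bar at -1.96, while genes with lower folds, such as Slc25a18 at -3.64, have wide bars.

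Genes of low level had the wider spread. The 16 genes under 50 CPM in the Input had a median log2 fold of -1.30 and a median coefficient of variation over IP of 43.7%, and the 14 genes at or above 50 CPM had -0.60 and 29.5%. In all, 13 of the 30 genes had an IP mean under 0.5 of the Input, and 7 had IP libraries that differed by more than 5-fold. Gfap, at a log2 fold of -2.09, had a standard error of 1.60, against 0.41 for Fam107a at -1.96.

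Of 65 other genes known from astrocytes 62 were tested. Of these Ttpa, Lcat and Entpd2 passed the low-count filter through the Input alone, so that they had to be lower in IP. By edgeR 0 were called (background 0.465% in either direction), 0 by DESeq2 and 0 by limma-voom, with 3 lower and 0 higher at an unadjusted p under 0.05 (background 1.23% and 3.21%). Of the other 59 genes, 27 lay under Input in all IP libraries (all genes tested: 24.1%) and 4 above (19.7%), and the median log2 fold was -0.85 (-0.86 over the 62). The lower genes were Prdx6, an antioxidant enzyme, the metallothionein gene Mt2, and Ttpa, a vitamin E carrier, whose direction the filter fixed. Prdx6 was at 90.6 CPM in Input and 28.1, 35.7 and 11.5 CPM in IP (adjusted p = 0.875 by edgeR), and Mt2 at 64.4 CPM and 16.0, 12.6 and 23.3 CPM (adjusted p = 0.914 by edgeR). Gm45774 on the opposite strand covers 73.5% of the Mt2 exon bases. Ttpa had 100 counts in Input and 9, 0 and 0 in IP (adjusted p = 0.99999 by edgeR), where a count of 0 allows up to 3, or 0.321 CPM in IP 2 and 0.259 CPM in IP 3.

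Abundant genes among these differed in direction. Ncan, the matrix proteoglycan neurocan, also made by neurons, was at 365 CPM and at 404, 711 and 411 CPM in IP, above the Input in every library (log2 fold 0.48 ± 0.42, adjusted p = 0.99999 by edgeR). The transcription factor gene Nfia was at 185 CPM and at 58.9, 131 and 63.6 CPM. Mt1, another metallothionein, was at 91.2 CPM and at 72.2, 63.4 and 41.5 CPM. Kcnj10, the potassium channel of astrocyte endfeet, chosen after its values were seen, had IP 3 far below the rest like Aqp4 and Mlc1. It was at 57.5 CPM in Input and 17.0, 51.1 and 1.81 CPM in IP. Hepacam of the same list was instead lowest in IP 2, at 46.1 CPM in Input and 43.8, 4.17 and 20.2 CPM in IP. Of the 62 genes tested, 33.9% were lowest in IP 3 (all genes tested: 31.4%).

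Of 16 genes of reactive astrocytes 11 were tested and 0 called by edgeR, DESeq2 or limma-voom, with 1, Cp, higher at an unadjusted p under 0.05 (background 3.21%). C3 and Gbp2 passed the low-count filter through IP alone and C4b through the Input alone, so their direction was set by the filter. The median log2 fold was 0.44 over the 11 genes and 0.42 over the 8 others. Lcn2 and Steap4, both induced in injury, had 0 counts in all 4 libraries. Vim, the intermediate filament vimentin of reactive astrocytes and of vessels, was at 9.60 CPM in Input and 16.8, 31.5 and 10.003 CPM in IP, and Serpina3n, a protease inhibitor, at 11.2 CPM and at 11.99, 14.3 and 20.2 CPM. Cp, the copper protein ceruloplasmin, was at 4.02 CPM and at 28.3, 39.5 and 12.7 CPM (log2 fold 2.74 ± 1.19, adjusted p = 0.994 by edgeR). S1pr3, a lipid receptor, was at 5.998 CPM and at 0.610, 2.46 and 10.5 CPM, and the class I gene H2-D1 at 5.64 CPM and at 6.63, 8.98 and 7.42 CPM.

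**Figure D3:**
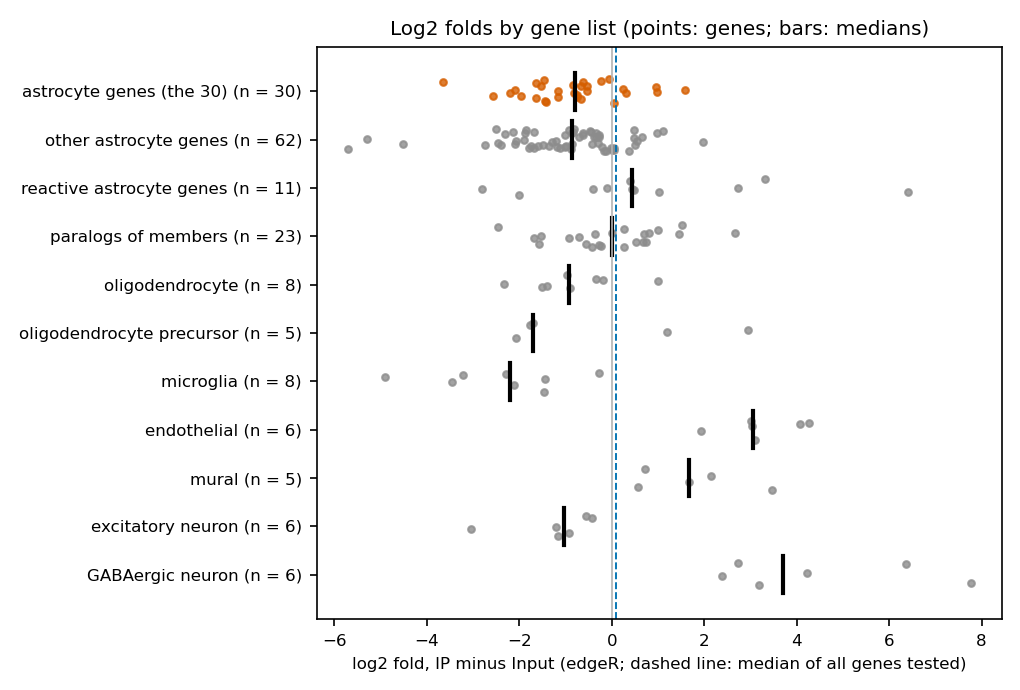
Log2 fold of IP over Input for every tested gene of each list (points), with the list median as a bar and the median of all genes tested as a dashed line. The astrocyte lists centre at -0.79 and -0.86, near oligodendrocyte markers at -0.93 and excitatory neuron markers at -1.04. Microglial genes centre at -2.20 and GABAergic markers at 3.70.

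Other glial lists were set beside the astrocyte genes. The median log2 fold was -0.93 for 8 oligodendrocyte markers, of which 5 lay under Input in all IP libraries (all genes tested: 24.1%). It was -2.20 for 8 microglial markers, of which Tmem119 and C1qa passed the filter through the Input alone. The 6 others all lay under Input in each IP library, with the same median of -2.20. The sums were 743 CPM and 86.3 CPM in the Input, and 340.0 to 542 CPM and 22.8 to 36.6 CPM in IP. The microglial receptor gene P2ry12 was at 21.2 CPM in Input and 1.74, 2.46 and 1.55 CPM in IP. Tmem119 and Aif1 were at 0 in IP 2, and C1qa was at 0 in IP 1 and 2. The myelin gene Mog was at 8.52 CPM and at 2.44, 1.07 and 1.55 CPM. For 5 markers of oligodendrocyte precursors the median was -1.70, with sums of 87.5 CPM and of 56.2 to 100.4 CPM, and Pdgfra was at 14.5 CPM and at 22.2, 62.1 and 15.3 CPM. The 6 markers of excitatory neurons had a median of -1.04. Of these, 4 lay under Input in all IP libraries (all genes tested: 24.1%), and edgeR called 1 lower (background 0.0479%). By contrast the endothelial markers lay above the Input in every IP library (all genes tested: 19.7%). Cldn5 passed the filter through IP alone, and the 5 others had a median of 3.09. The 6 genes had a summed 10.6 CPM in Input and 82.0, 174 and 92.4 CPM in IP, with Flt1 at 3.06 CPM and at 44.7, 94.9 and 16.0 CPM. The mural markers summed to 67.5 CPM and to 118, 340.5 and 214 CPM, with Pdgfrb at 4.32 CPM and at 2.88, 41.8 and 12.9 CPM and Kcnj8 at 0 in IP 2 and 3. Vascular cells are the contact of the endfeet that hold Aqp4, and the part of vascular RNA in these values was not tested.

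Taken as a whole list, the 30 astrocyte genes were most often highest in IP 2 and lowest in IP 1. The 15 genes listed as mostly astrocytic were lowest in IP 1 and in IP 3 equally often (7 each), and 10 were highest in IP 2. Of the 15 also known from other brain cells, 8 were lowest in IP 1 and 0 in IP 3, and 8 were highest in IP 3. Of the 30, 15 had their highest IP level in IP 2 (all genes tested: 33.2%), 11 in IP 3 and 4 in IP 1, and 15 had their lowest in IP 1 (all genes tested: 33.0%). The median log2 ratio to the Input, with 0.5 CPM added, was -0.99 in IP 1, -0.55 in IP 2 and -0.99 in IP 3. Excitatory markers, too, were highest in IP 2, at a summed 1065 CPM against 544 and 673 CPM in IP 1 and 3, and GABAergic markers were lowest there, at 4753 CPM against 7441 and 5355 CPM. Oligodendrocyte markers summed to 340.0, 542 and 472 CPM in IP 1, 2 and 3. Their part in the astrocyte levels was not tested. Without IP 2 the median log2 fold of the 30 was -1.04, and without IP 1 it was -0.70.

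Several of the 30 genes have a paralog that neurons or most cells use, and the ratio of the 2 counts in a library does not depend on scaling. Such ratios are not per length, and their differences between IP and Input were not tested. In 23 pairs set after levels were known, the ratio was below that of the Input in all IP libraries in 9 pairs and above it in 1. The pairs hold 18 of the 30 genes and 21 paralogs, so that genes recur and the pairs are not separate results. No such count was made over other gene pairs. Aldoc stood to Aldoa, the general aldolase, at 0.401 in the Input and at 0.186, 0.212 and 0.197 in IP 1, 2 and 3. Ndrg2 stood to its neuronal paralog Ndrg4 at 0.150 in the Input and at 0.0968, 0.0845 and 0.0858. The IP values of these abundant pairs lay close together, and all were far from the Input.

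The glutamate carrier and connexin pairs also lay below the Input. Of the mitochondrial glutamate carriers, Slc25a18 stood to Slc25a22, the more widely used one, at 0.165 and at 0.0178, 0.0177 and 0.0314. Gja1 stood to Gjd2, the connexin of neurons, at 11.3 in the Input and at 0.599, 0.488 and 0.562 in IP, where Gjd2 had 39 counts in Input and 601, 123 and 64 in IP.

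In all pairs other than the 9 below the Input and the 1 above it, the IP libraries lay on both sides. Among these pairs the IP mean ratio was from 0.639 of the Input (Mertk to Tyro3) to 7.10 (S100b to S100a1). S100a1 had only 3 counts in IP 2 and 1 in IP 3. Slc1a2 stood to the neuronal transporter Slc1a1 at 19.4 in the Input and at 27.3, 23.6 and 15.3 in IP, and Atp1b2 to Atp1b1 at 0.304 and at 0.464, 0.369 and 0.291. Sparcl1 stood to Sparc, a matrix gene of vessels and glia, at 17.8 and at 18.4, 6.31 and 29.2. Fgfr3 differed by paralog. Its ratio to Fgfr1, known from neurons, was below the Input in all IP libraries, at 0.863 and at 0.234, 0.389 and 0.237. Its ratio to Fgfr2, which oligodendrocytes and astrocytes also make, was the 1 above the Input in all, at 0.449 and at 0.5, 1.31 and 0.684. Of 24 paralogs 23 were tested (Acsbg2 had 1 count in all), and 0 were called by edgeR, 1 by DESeq2 and 0 by limma-voom, against 0.465%, 1.23% and 0.342% of all genes tested. At an unadjusted p under 0.05, 2 were higher (background 3.21%; among them the neurofilament gene Nefl, at 396 CPM and 606, 997 and 754 CPM). The 10 paralogs above the Input in every IP library (all genes tested: 19.7%) included Aldoa, Atp1b1, Gjd2, Aldh1l2, Fgfr1, Slc4a10, Slc4a8 and Nefl, and the 7 below it (24.1%) were Slc1a1, Slc25a22, Fgfr2, Ntsr1, Tyro3, Gpr37 and S100a10. Slc7a11, Ndrg4, Axl, Sparc, Slc4a7 and S100a1 lay on both sides. The median log2 fold of the 23 paralogs tested was 0.0073 and turned negative under 4 other settings.

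**Figure D4:**
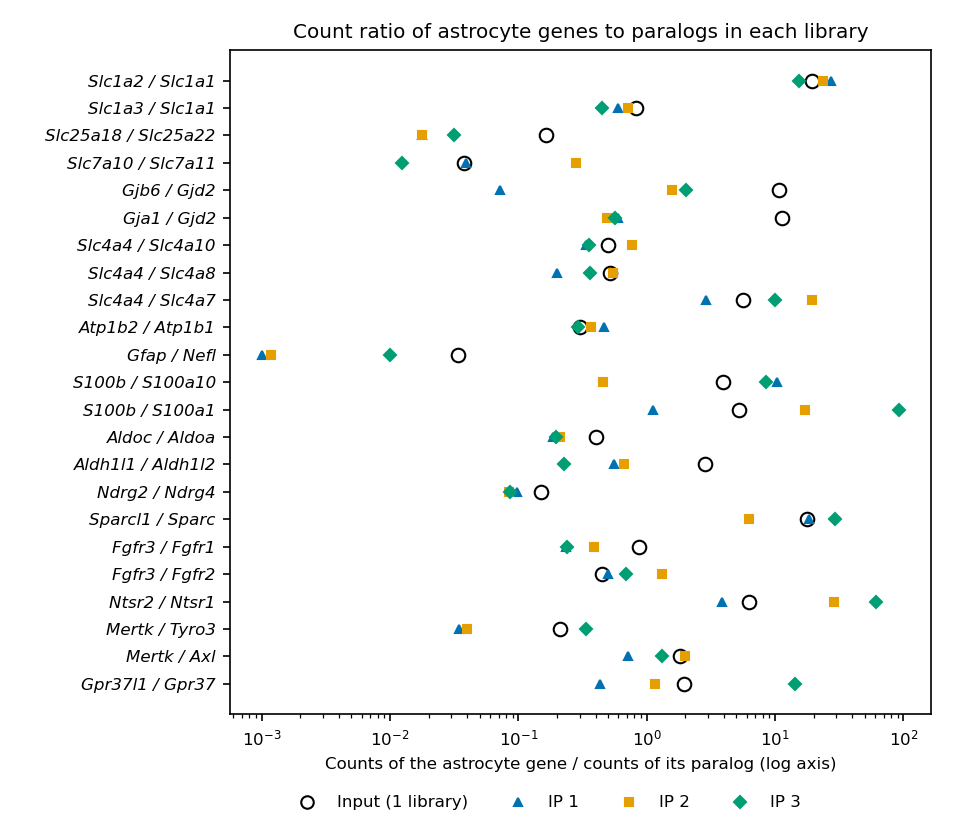
Counts of an astrocyte gene divided by the counts of a paralog (rows) in the Input (open circles) and the 3 IP libraries (filled symbols), on a log axis. The Aldoc to Aldoa ratio is 0.401 in the Input and 0.186 to 0.212 in IP, whereas the Slc1a2 to Slc1a1 ratio of the Input, 19.4, lies among the IP values.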

How the data were processed

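RNA of 1 Input and 3 IP libraries was analysed. The deposited tables hold raw read counts per gene, with Entrez identifiers and symbols. Per the submitters' processing notes, STAR 2.0.0e, HTSeq and mm10 were used; the tables' names carry the word subread, so the counter is uncertain, and annotation, strand setting and treatment of multiply mapped reads are not given in the sources used here. Rows without a symbol (9 of 24100, at most 0.0221% of counts) were left out.

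Counts were filtered (edgeR filterByExpr, minimum count 10), scaled by TMM and tested with edgeR 4.0.16 in R 4.3.3 (quasi-likelihood F test, Benjamini-Hochberg threshold 0.05, 14628 genes). The spread was estimated on the IP libraries alone (residual degrees of freedom: 2), the lone Input being assumed to vary like them. Each gene's spread was drawn towards that of the other genes (prior degrees of freedom: 17.0). Standard errors by edgeR were derived from the log2 fold and the F statistic, so they are not a gene's own IP spread alone. DESeq2 1.42.0 and limma-voom (limma 3.58.1), other scalings, filters and thresholds, and leaving out each IP library were alternatives. No 2 libraries agreed within counting noise. Intervals are 95% intervals from the fit; limits for a count of 0 (3 counts) cover counting error only. Exon lengths and overlaps are from GENCODE vM21 (GRCm38, the build named mm10), promoter windows from RefSeq. The script was tested on simulated data. Of genes given a log2 fold of -2 there, 8.7% were called, and of those given -4, 42.2%. At 2 and 4 the shares were 16% and 78%. A gene that did not pass may therefore still differ, more so when lower in IP.

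The members and lists were chosen with earlier results of these data known. Named in full were members past the threshold, at an unadjusted p under 0.05, above the Input in every IP library, or among the 2 most abundant of their role group; of the other astrocyte and reactive lists, those past the threshold, at an unadjusted p under 0.05 or among the 4 most abundant; the paralogs; and the first marker of each other cell type. Some genes that this rule names are not reported here.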

Additional observations from a re-analysis of the deposited data

How the results depend on the processing

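Over 11 refits, 318 of 329 log2 folds of the 30 astrocyte genes kept their direction and their side of the threshold, 11 changed sign in 5 genes, and 0 calls were lost or gained. Fam107a stayed called in all 11 (adjusted p 0.000532 to 0.0348), but at an adjusted p under 0.01 the count of astrocyte genes called lower was 0. Sign changes were in Slc4a4 (-0.0053 with limma-voom, -0.041 with library totals, -0.30 without IP 2), Sparcl1 (-0.16 with upper-quartile factors, -0.21 with library totals, -0.055 with a mean of at least 5 CPM, -0.027 without IP 3), Clu (0.033 without IP 1, 0.088 without IP 2), Slc6a11 (-0.023 without IP 2) and Slc7a10 (-0.71 without IP 2). The paralogs' median turned to -0.038 with limma-voom, -0.21 with upper-quartile factors, -0.27 with library totals and -0.11 with no filter. Library totals put the median of the 30 genes at -1.06 and their summed ratio at 0.667, and moved the median of all genes by -0.27. Over all genes, 7 called lower became 12 with DESeq2, 14 with limma-voom, 15 with upper-quartile factors, 15 with library totals, 14 with no filter and 4 at 0.01, and 61 called higher became 168 with DESeq2, 36 with limma-voom, 94 with no filter and 35 at 0.01. Leaving out 1 IP library put Slc4a4 at -0.30 to 0.47, Sparcl1 at -0.027 to 0.14, Clu at -0.35 to 0.088, Slc6a11 at -0.023 to 0.54 and Slc7a10 at -0.71 to 2.15. Over all genes it gave 8 to 25 called lower and 82 to 186 called higher, both highest without IP 1 (and 95 higher without IP 2). The cause was not tested. No paired analysis was possible because there is 1 Input library for 3 IP libraries.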
